A study of Mus musculus with 4 samples.

Results

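The connexin genes Gja1, Gja4, Gja5, Gjc1, Gjc3, Gjb1 and Gjb2 were followed across the cells of mouse popliteal vessels. The 7 genes were taken by symbol from 32286 genes, and 20 connexin genes were listed in all. All mice carried the same alleles: the WT1GFPCre allele, which places an EGFP and Cre fusion in the Wt1 locus, and the Ai9-tdT reporter at the Rosa26 locus, where tdTomato follows Cre activity. The adult mice had been anaesthetised with K/X and injected in the footpad with Evans blue before popliteal vessels were dissected, and no control genotype was compared. Popliteal lymphatic vessels (PLV) gave 2 libraries, PLV 1 and PLV 2, each from a separate pool of 2 mice digested for 30 min with collagenase I, Dispase II, DNase and Liberase. A mixed library came from 1 pool of 2 mice, digested for 60 min with collagenase I and Dispase II alone, and held PLV cells together with cells labelled BV. The hashtags could not be tied to a vessel from the labels used here, so the mixed library was treated as 1 sample. RNA was read by a droplet method that tags the 3′ end of each molecule with a unique molecular identifier (UMI).

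Connexins are membrane proteins that assemble as hexamers, and hexamers of neighbouring cells dock into gap junction channels that pass ions and small molecules between the cells. In blood vessels they couple endothelial cells to each other and to muscle. In collecting lymphatic vessels they couple the muscle cells that contract together, and they are needed in endothelium for valves to form. Gjc1 encodes Cx45, a connexin of smooth muscle and of the cardiac conduction system. Gja4 encodes Cx37, and Gja5 encodes Cx40, both best known from arterial endothelium. Gja1 encodes Cx43, the most widely expressed connexin. Gjb1 encodes Cx32 and Gjc3 encodes Cx29, both proteins of myelinating Schwann cells, and Gjb2 encodes Cx26, a connexin of epithelia and the inner ear.

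On the mouse assembly GRCm38, Gja1 lies on the forward strand at chr10:56377330-56402513 and Gja4 on the reverse strand at chr4:127311421-127314039. Gja5 is annotated on the forward strand at chr3:96904693-97077416, a span in which other genes, among them Gpr89, lie on the other strand. Gjc1 lies at chr11:102799579-102819700 and Gjc3 at chr5:137953461-137963098, both on the reverse strand. Gjb1 lies on the forward strand at chrX:101376378-101385629 and Gjb2 on the reverse strand at chr14:57098600-57104702. Apart from Gja5, none of the 7 overlapped another annotated gene.

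The RefSeq promoter table matched 6 of the 7 genes. The 250 bases before the start site are shown for the 4 members that were detected in the 6 cell classes and had a single entry in the table, since these genes were high in different classes: Gja1 at chr10:56377050-56377299 (forward), Gja4 at chr4:127314040-127314289 (reverse), Gja5 at chr3:97032152-97032401 (forward) and Gjc3 at chr5:137963099-137963348 (reverse), all of build GRCm38.p6 and written 5′ to 3′ along the gene. Capitals mark matches to a GC box (GGGCGG) or to the core letters bound by SOX proteins (ACAANG), searched on both strands, and the Gja1 window held neither.
Gja1: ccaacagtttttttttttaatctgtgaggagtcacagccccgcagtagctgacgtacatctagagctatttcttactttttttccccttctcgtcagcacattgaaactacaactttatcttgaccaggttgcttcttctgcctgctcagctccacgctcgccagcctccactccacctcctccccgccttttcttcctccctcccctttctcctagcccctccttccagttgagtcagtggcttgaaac
Gja4: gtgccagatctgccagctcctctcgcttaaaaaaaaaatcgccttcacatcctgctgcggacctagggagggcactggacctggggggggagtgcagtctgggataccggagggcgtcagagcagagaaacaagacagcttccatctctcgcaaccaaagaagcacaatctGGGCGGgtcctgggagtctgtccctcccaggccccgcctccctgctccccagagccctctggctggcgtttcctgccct
Gja5: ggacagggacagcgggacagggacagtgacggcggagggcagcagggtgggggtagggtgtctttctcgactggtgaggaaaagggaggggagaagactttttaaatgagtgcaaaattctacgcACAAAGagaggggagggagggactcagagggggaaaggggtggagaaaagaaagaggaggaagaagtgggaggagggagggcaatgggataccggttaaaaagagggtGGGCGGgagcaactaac
Gjc3: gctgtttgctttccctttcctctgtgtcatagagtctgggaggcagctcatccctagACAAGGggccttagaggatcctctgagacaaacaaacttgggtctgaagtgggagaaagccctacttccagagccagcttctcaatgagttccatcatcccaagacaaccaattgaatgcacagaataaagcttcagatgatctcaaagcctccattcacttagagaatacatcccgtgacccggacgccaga
The 250 bases held a GC box in Gja4 and Gja5, a motif present in the same window of 32.9% of 27025 promoters in the table. SOX core letters occurred once in Gja5 and once in Gjc3, against 36.6% of promoters. None of these 4 windows held the T-box core AGGTGT (12.0% of promoters), the forkhead core GTAAACA (3.09%) or a CArG box (1.40%), and no match overlapped another. These are matches of letters, and no binding was measured.

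The kept cells were 1909 in PLV 1, 516 in PLV 2 and 994 in the mixed library, with 9577642, 3390010 and 7770796 UMIs. Clusters were named from marker genes, with the connexins kept out of the clustering, and 6 classes of cells held 1603, 417 and 894 cells of the 3 libraries. Every class had at least 4 of its markers raised 2-fold in each of its clusters. No cell barcode was shared between libraries. Xist, the transcript that silences an X chromosome in female cells, was counted 6259 times in PLV 1, 2099 times in PLV 2 and once in the mixed library. Levels are UMIs per 1000000 UMIs of the class (CPM). A 3′ count does not grow with gene length, and levels are compared between cells rather than between genes.

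Of the 7 connexins, 5 had their highest level in the same class in every library. Gjc1 was highest in pericyte-like and muscle-like cells, Gja1 in fibroblast-like and endothelial cells, Gja5 in blood endothelial-like cells, and Gjc3 and Gjb1 in Schwann-like cells. Gja4 was found in pericyte-like, muscle-like and both endothelial classes and was near 0 elsewhere. Immune classes other than mast-named cells had at most 1 UMI of any member in any library. Over 3 libraries the order of levels had 8 steps between neighbouring classes that passed the test (edgeR quasi-likelihood test on summed counts, adjusted over all genes), and these steps are named with each gene. Beside the shares given with single comparisons below, the share of all genes that passed was 25.4% for pericyte-like against blood endothelial-like cells, 27.6% for pericyte-like against Schwann-like cells, 42.8% for muscle-like against lymphatic endothelial-like cells, 37.7% and 38.0% for fibroblast-like against blood and lymphatic endothelial-like cells, and 36.6% and 36.9% for blood and lymphatic endothelial-like against Schwann-like cells. In the test across classes 6 of the 7 members passed the filter on low counts. Gja5, Gjc3 and Gjb1 did so through the class in which they were high. Their steps down from that class are thus no separate support for the levels.

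**Figure D1:**
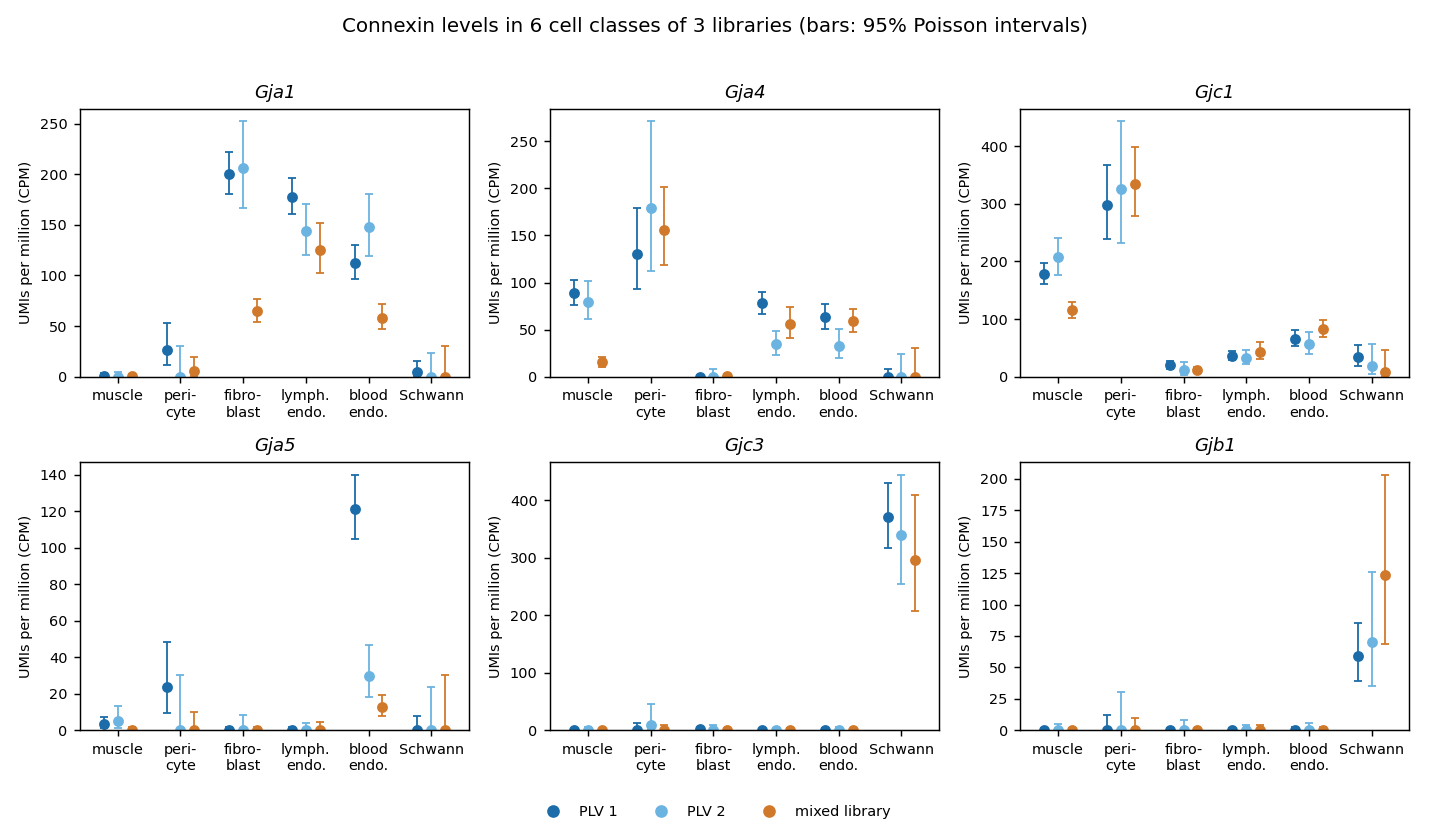
Level of 6 connexins in CPM (linear axis from 0) in each of 6 cell classes, 1 point per library with its 95% Poisson interval, which covers counting error only. Gjc3 and Gjb1 stand above 0 almost solely in Schwann-like cells, and Gja4 of the mixed library is low in muscle-like cells (15.4 CPM against 88.4 and 79.2).

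Gjc1 was the connexin found in every muscle-like cluster. In pericyte-like cells its level was 298 CPM in PLV 1, 326 in PLV 2 and 335 in the mixed library. Muscle-like cells held 178, 207 and 115 CPM. All pericyte-like class values were above all muscle-like ones, and the muscle-like values were above those of every other class, where no library exceeded 82.3 CPM. Single clusters did overlap. The PLV 1 pericyte-like class joined a cluster at 216 CPM (47 cells) and one at 441 CPM (35 cells). The former was below muscle-like clusters at 221 CPM in PLV 1 (57 cells) and 243 CPM in PLV 2 (53 cells). Muscle-like cells differed from pericyte-like cells by -0.80 ± 0.23 (SE) on the log2 scale (edgeR adjusted p = 0.0292). That call was lost when any 1 library was left out (adjusted p = 0.0957 without PLV 1, 0.115 without PLV 2 and 0.16 without the mixed library). Muscle-like cells stood above blood endothelial-like cells by 1.24 ± 0.23 (edgeR adjusted p = 0.000213), a call kept under each of 12 alternatives. In that contrast 3 of 6 members passed (Gjc1, Gja1 and Gja5), where 40.7% of all genes did.

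Gjc1 was lower in the remaining classes. Blood endothelial-like cells held 66.1, 56.4 and 82.3 CPM, and lymphatic endothelial-like cells held 35.4, 33.3 and 43.4 CPM. The classes did not overlap, and the difference was -0.94 ± 0.26 (edgeR adjusted p = 0.0102), a call lost without PLV 1 (adjusted p = 0.0774) or PLV 2 (0.0852). Schwann-like cells held 33.8, 19.2 and 8.2 CPM and fibroblast-like cells 19.6, 11.1 and 11.8 CPM, overlapping each other (edgeR adjusted p = 0.51). In the mixed library the near-empty droplets, which show the RNA free in the suspension, held 31.0 CPM of Gjc1. The 95% Poisson interval of the mixed lymphatic endothelial-like level (30.4 to 60.2 CPM) included that value. The fibroblast-like and Schwann-like levels of that library were below it. Such droplets give the make-up of free RNA and not how much of it reached each cell. Immune classes of that library held 0 Gjc1 UMIs of 132304 (upper 95% Poisson limit 27.9 CPM). The part of free RNA in each level was not measured.

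Among whole classes Gja4 had its highest level in pericyte-like cells, with 131, 179 and 156 CPM, while in PLV 1 the arterial-like cluster (185 CPM) and Pln-type muscle-like cells (137 CPM), both described below, were higher. Muscle-like cells held 88.4, 79.2 and 15.4 CPM, the last in the mixed library. Lymphatic endothelial-like cells held 77.9, 34.3 and 55.5 CPM, and blood endothelial-like cells held 62.9, 32.9 and 59.1 CPM. The pericyte-like values were above those of all other classes, while the other 3 classes overlapped and did not differ in order (edgeR adjusted p = 0.998 for each neighbouring pair). Pericyte-like against muscle-like cells missed the threshold (log2 difference of muscle -1.33 ± 0.45, edgeR adjusted p = 0.0699), and it passed when cells over 20000 UMIs were left out (adjusted p = 0.0184) or when no filter on low counts was used (5.99e-05). Without the mixed library, muscle-like cells were above blood endothelial-like cells (0.75, edgeR adjusted p = 0.0397).

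Below these classes Gja4 was nearly undetected. Fibroblast-like cells held 1 UMI of 4402782 in all, and Schwann-like cells held 0 of 751000, which allows up to 3 UMIs. The step from blood endothelial-like to fibroblast-like cells was the sole Gja4 step that passed the test (edgeR adjusted p = 8.52e-06). Muscle-like cells stood 7.20 ± 0.95 above fibroblast-like cells on the log2 scale (edgeR adjusted p = 7.68e-06), which is 240-fold in pooled CPM with a counting interval of 42.7 to 9509 from the single UMI. Within that contrast, 4 of the 6 members tested passed, 3 higher and 1 lower in muscle-like cells, where 39.4% of all genes passed. The third member higher in muscle-like cells was Gja5, at least 3.15-fold against a floor of 3 counts over the class (edgeR adjusted p = 0.0344), a call lost by DESeq2 (0.608) and without PLV 2 (0.0656). Between muscle-like and pericyte-like cells 2 of 6 passed, both lower in muscle-like cells, against 11.6% of all genes. The members that passed there were Gjc1 and Gja1, the latter resting on 3 muscle-like and 10 pericyte-like UMIs and lost without PLV 1 (adjusted p = 0.421).

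Gja4 was present in one kind of muscle-like cell and near 0 in the others. Muscle-like clusters fell into kinds by pairs of markers: an Ano1 type, named from the calcium-activated chloride channel Ano1 and the matrix gene Hmcn2, a Pln type, named from phospholamban and Sorbs2, and a P2rx1 type of 74 cells found in the mixed library. In the Pln type Gja4 was 137 CPM in PLV 1 (249 cells), 135 in PLV 2 (53 cells) and 106 in the mixed library (43 cells). In the Ano1 type it was 1.39 CPM (1 UMI, 140 cells), 0 (56 cells) and 1.75 CPM (2 UMIs, 168 cells), and in the P2rx1 type it was 0. A further muscle-like cluster of 24 cells in PLV 1 was given no kind and held 64.2 CPM from 2 UMIs. The kinds were separated in every library, by -6.46 ± 0.40 on the log2 scale (Ano1 type against Pln type, edgeR adjusted p = 5.18e-13), and this call held under all 12 alternatives. Gja4 passed the filter on low counts through the Pln type, so its p-value here adds no separate support. In pooled CPM the ratio was 95.8-fold (counting interval 32.4 to 467). Near-empty droplets of the mixed library held 18.0 CPM, above the Ano1-type level there.

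Gjc1 was present in all kinds. Ano1-type cells held 150, 155 and 147 CPM and Pln-type cells 193, 243 and 119 CPM, in the order PLV 1, PLV 2 and mixed. The Pln type was above the Ano1 type in both PLV libraries and below it in the mixed one. The difference of -0.42 ± 0.17 (Ano1 type minus Pln type) missed the threshold (edgeR adjusted p = 0.0689) and passed it without the mixed library (-0.65, adjusted p = 0.00485). P2rx1-type cells held 69.0 CPM (95% Poisson interval 52.2 to 89.4), below both other kinds of that library, with 1 library and no test. Between the Ano1 and Pln types 1 of the 2 members tested passed, where 32.3% of all genes did. That member was Gja4, whose p-value adds no separate support.

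**Figure D2:**
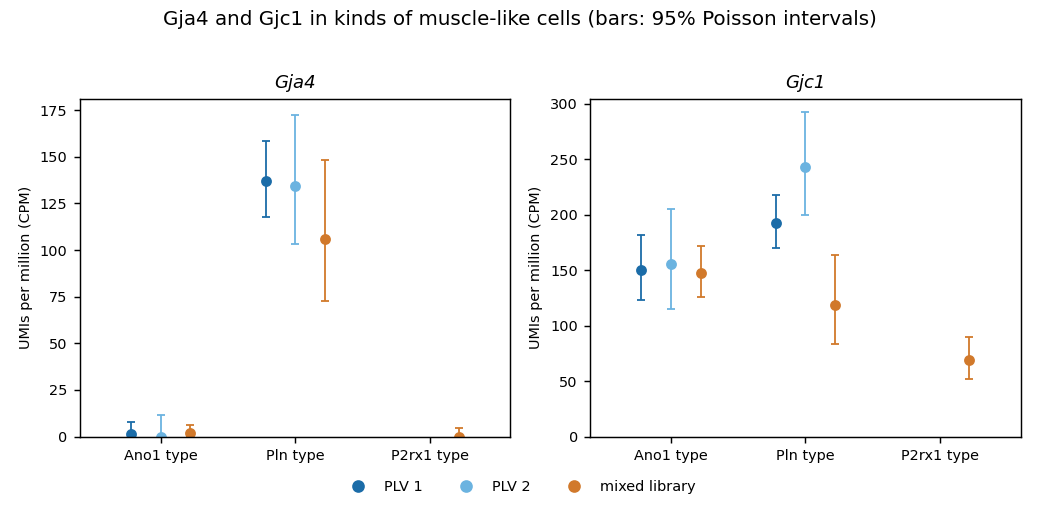
Gja4 and Gjc1 in CPM (linear axis from 0) in 3 kinds of muscle-like cells, 1 point per library with its 95% Poisson interval. Gja4 lies between 106 and 137 CPM in the Pln type and at most 1.75 CPM in the others, while Gjc1 is at least 69.0 CPM in every kind.

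Shares of cells with a UMI gave the same pattern. In the Pln type 42.6% of PLV 1 cells, 58.5% of PLV 2 cells and 44.2% of mixed cells had a Gja4 UMI. In the Ano1 type the shares were 0.714%, 0 and 1.19%. Thinned to 1500 UMIs a cell, the Pln-type shares were 15.1%, 18.9% and 11.6%, and fibroblast-like cells, which lack the gene, had at most 1 cell with a UMI in any library at full depth. Among the 249 Pln-type cells of PLV 1, 61 had UMIs of both Gja4 and Gjc1, 45 of Gja4 alone, 74 of Gjc1 alone and 69 of neither.

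Transcription factors known to act on connexin genes also differed between the kinds. Of 12 such factors, 7 were tested and 6 passed, all lower in the Ano1 type: Tbx2, Klf2, Tbx3, Notch1, Klf4 and Egr2. Of all genes tested 32.3% passed, 16.6% as lower and 15.7% as higher in the Ano1 type. Tbx2, a T-box repressor, averaged 2.72 CPM in the Ano1 type and 193 CPM in the Pln type (edgeR adjusted p = 2.23e-14), and Klf2, a factor induced by shear stress in endothelium, 26.1 and 414 CPM (adjusted p = 2.54e-14). The list's median was -2.32 on the log2 scale, against 0.01 over all genes tested. Of 11 genes for connexin partners and trafficking, 9 were tested and 5 passed, all higher in the Ano1 type: Ccn3, Cdh2, Cav1, Nedd4 and Tjp1, with a list median of 0.69. Ccn3, a matricellular protein that binds Cx43, averaged 327 CPM in the Ano1 type and 15.9 CPM in the Pln type (edgeR adjusted p = 7e-14), and Tjp1, the scaffold ZO-1 that caps gap junction plaques, 129 and 74.6 CPM (adjusted p = 0.00644).

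Gja1 was the connexin of fibroblast-like cells and was also found in both kinds of endothelium. Fibroblast-like cells held 200 CPM in PLV 1, 206 in PLV 2 and 64.8 in the mixed library. Lymphatic endothelial-like cells held 178, 144 and 126 CPM, and blood endothelial-like cells 112, 147 and 58.4 CPM. These 3 classes overlapped, and neighbours in the order did not differ (edgeR adjusted p = 0.646 and 0.15). Lymphatic above blood endothelial-like cells passed without PLV 2 (0.89, adjusted p = 0.0424) and with cells over 20000 UMIs left out (0.88, adjusted p = 0.037).

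Muscle-like cells had almost no Gja1. They held 0.97, 0 and 0.44 CPM (2, 0 and 1 UMIs), and pericyte-like cells held 26.8, 0 and 5.28 CPM (8, 0 and 2 UMIs). Schwann-like cells held 4.23, 0 and 0 CPM. All these values were below those of the 3 classes above, and the step from blood endothelial-like to pericyte-like cells passed (edgeR adjusted p = 2.69e-05). Muscle-like cells stood -7.84 ± 0.46 below fibroblast-like cells on the log2 scale (edgeR adjusted p = 1.52e-10), a 232-fold ratio with a counting interval of 78.9 to 1127. Near-empty droplets of the mixed library held 21.0 CPM of Gja1, above the muscle-like and pericyte-like levels of that library.

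Fibroblast-like clusters differed in Gja1. In PLV 1 a cluster led by Myoc and Gpx3 held 261 CPM, one led by Inmt and Gdf10 held 192, one with Pi16 among its leading genes held 168, and one led by Apod and Smoc2 held 33.2. In the mixed library the cluster led by Cxcl14 and C4b held 149 CPM, the one led by Sfrp2 and Sfrp4 held 62.5, and the largest, 139 cells led by Col4a4 and Tspan11, held 11.2. PLV 2 had a cluster of 74 cells led by C3 and Dpt at 224 CPM and one of 14 cells led by Apod and Smoc2 at 24.1. Gja1 was thus high in some fibroblast-like clusters of each library and low in others of the same library. The low values of the Apod and Smoc2 clusters rested on 3 UMIs in PLV 1 and 1 UMI in PLV 2. The clusters were not tested against each other.

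Gja5 separated the endothelia. Blood endothelial-like cells held 121 CPM in PLV 1 (187 UMIs), 29.8 in PLV 2 (19 UMIs) and 12.6 in the mixed library (20 UMIs). Lymphatic endothelial-like cells held 0 UMIs in 316 cells and 4045830 UMIs, and the difference was at least 80.8-fold against a floor of 3 counts over the class (edgeR adjusted p = 4.44e-06, DESeq2 adjusted p = 0.238). Blood endothelial-like cells were higher in every library. The step down to pericyte-like cells, the next class in the order, also passed (edgeR adjusted p = 0.00484, DESeq2 adjusted p = 0.691). Gja5 passed the filter on low counts through blood endothelial-like cells, so its p-values here add no separate support. Gja5 and Gjc1 were the 2 of 6 members that passed between lymphatic and blood endothelial-like cells, both lower in lymphatic ones, where 21.6% of all genes passed. Without PLV 1, Gja5 no longer passed the filter on low counts and Gjc1 was not called. Muscle-like cells held 3.40, 5.11 and 0 CPM of Gja5, where the 4 UMIs of PLV 2 all came from 1 cell. The 7 UMIs of PLV 1 pericyte-like cells also came from 1 cell.

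The arterial-like cluster of PLV 1 held most of the Gja5. That cluster of 74 cells, named from Sema3g, Stmn2 and other arterial markers, held 174 of the 187 Gja5 UMIs of that library's blood endothelial-like cells, at 481 CPM (95% Poisson interval 412 to 558). A UMI was found in 59.5% of its cells (95% Clopper-Pearson interval 47.4 to 70.7). Neither of the other libraries had a cluster named arterial, so this level has no replicate. In PLV 2 an unnamed cluster of 62 cells with few UMIs each (median 986.5) had Cytl1, Gkn3 and Mgp among its leading genes, as the arterial-like cluster did, and held 66.5 CPM from 5 UMIs. Gja4 was also highest there among blood endothelial-like clusters, at 185 CPM.

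Capillary-like clusters were found in all 3 libraries and venular-like ones in PLV 1 and the mixed library. Capillary-like cells held 16.7, 29.8 and 24.3 CPM of Gja5, and venular-like cells 2.16 (1 UMI) and 0 CPM. For Gja4 the capillary-like values were 36.2, 32.9 and 109 CPM and the venular-like values 8.65 and 5.21 CPM. For Gja1 they were 153, 147 and 81.3 against 36.8 and 33.9 CPM. The last of these joined venular-like clusters at 47.4 and 4.15 CPM. Capillary-like values lay above venular-like values in each of these genes.

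By test 3 of the 4 members passed, all higher in capillary-like clusters, where 13.6% of all genes passed and 6.18% did so as higher. PLV 2 had no venular-like cluster, so with library as a block the test rested on PLV 1 and the mixed library. The differences were 3.36 ± 0.47 for Gja4 (edgeR adjusted p = 9.4e-07), 4.27 ± 0.96 for Gja5 (0.00107) and 1.47 ± 0.27 for Gja1 (8.41e-05). DESeq2 called 1 of them, with adjusted p = 0.257 for Gja5 and 0.21 for Gja1, and the Gja4 call was lost without the library block (edgeR adjusted p = 0.0588). Gja4 and Gja5 passed the filter on low counts through the capillary-like clusters, so their p-values here add no separate support. Gjc1 was 66.7, 56.4 and 113 against 45.4 and 49.5 CPM, higher without overlap but short of the threshold (0.77 ± 0.27, edgeR adjusted p = 0.0549), which it passed without PLV 2 (adjusted p = 0.0463). The single blood endothelial-like cluster of PLV 2 also carried venular markers, and the capillary-like cluster of the mixed library also carried arterial ones.

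**Figure D3:**
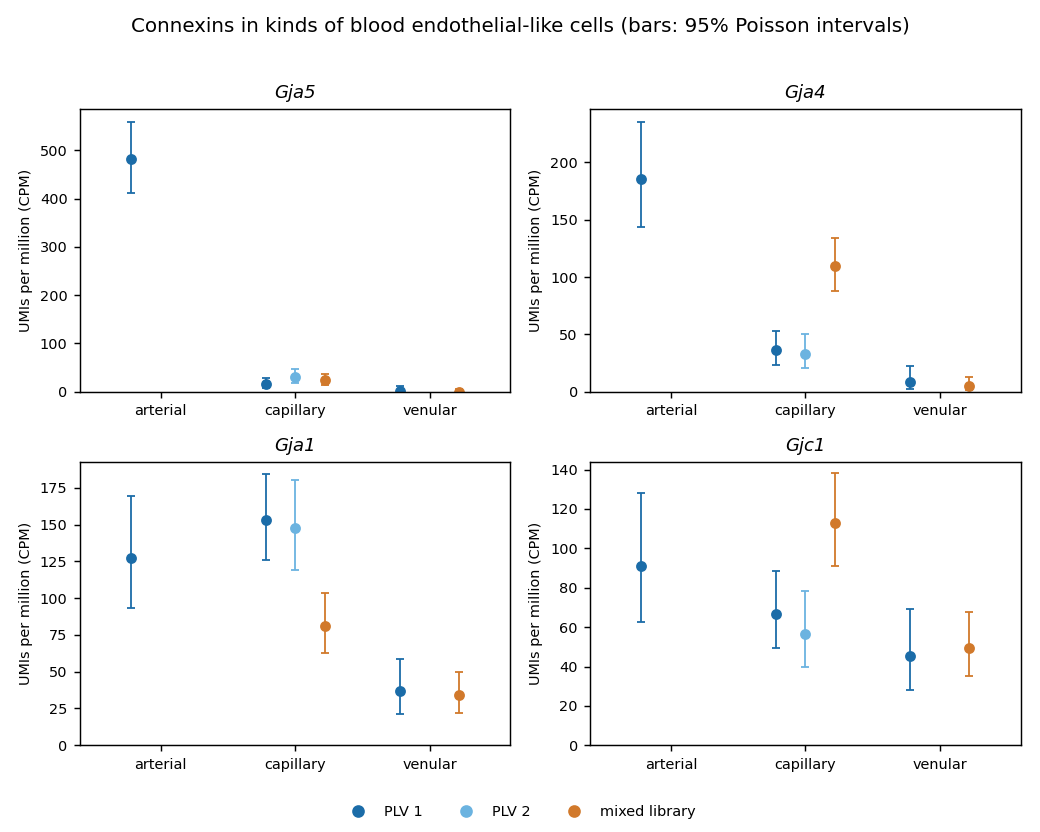
Gja5, Gja4, Gja1 and Gjc1 in CPM (linear axes from 0) in kinds of blood endothelial-like clusters, 1 point per library with its 95% Poisson interval. The arterial-like kind occurs in PLV 1 alone, and venular-like points are lowest in each panel (Gja4 8.65 and 5.21 CPM).

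Several factors of the same list differed between lymphatic and blood endothelial-like cells. Of 12 factors, 4 passed as higher in lymphatic cells (Prox1, Foxc2, Gata2 and Klf4) and 3 as lower (Sox17, Tbx3 and Tbx2), where 21.6% of all genes passed, with a list median of 0.07 against -0.04 over all genes. Prox1 and Sox17 had served to name the classes. Foxc2, a factor of lymphatic valve formation, averaged 109 CPM against 3.82 CPM (edgeR adjusted p = 1.2e-07). Among the partner and trafficking genes, Dbn1 was higher in lymphatic cells and Cav1 and Cdh2 were lower, the last at 0.292 against 25.0 CPM (edgeR adjusted p = 4.17e-06).

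Lymphatic endothelial-like cells were also split by whether a UMI of the valve genes Cldn11 or Foxc2 was found. Gja4 was 79.8, 36.3 and 60.4 CPM in cells with such a UMI and 65.5, 25.0 and 25.7 CPM in cells without. It was higher with the marker in each library, but the groups overlapped (0.53 ± 0.32, edgeR adjusted p = 0.543). Gja1 was 164, 148 and 121 CPM with the marker and 265, 125 and 154 CPM without (-0.35 ± 0.20, edgeR adjusted p = 0.52), and Gjc1 was 35.4, 36.3 and 47.8 against 36.0, 18.8 and 17.1 CPM (0.52 ± 0.40, adjusted p = 0.7). None of the 3 members tested passed, by edgeR or by DESeq2, and none had an unadjusted p under 0.05, where 1.54% of all genes passed. The cells with a marker UMI also held most of the RNA of the class (1980154 of 2285453 UMIs in PLV 1, from 100 of 192 cells). Depth was therefore varied by thinning the marker counts to an equal number of UMIs a cell before the split. No member was called under that alternative or under any other. How much of the differences in level came from depth was not measured.

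Gjc3 and Gjb1 marked Schwann-like cells. Gjc3 was 370 CPM in PLV 1, 339 in PLV 2 and 296 in the mixed library, and the 5 other classes together held 5 of its 269 UMIs. Gjb1 was 59.2, 70.4 and 123 CPM, and all 54 of its UMIs lay in Schwann-like cells. Both were above every other class in each library, and the step to the next class passed for Gjc3 (edgeR adjusted p = 1.61e-07) and for Gjb1 (edgeR adjusted p = 4.7e-05, DESeq2 adjusted p = 0.169). Against fibroblast-like cells Gjc3 was higher by 8.36 ± 0.49 on the log2 scale (edgeR adjusted p = 3.09e-09) and Gjb1 by at least 106-fold against the floor (edgeR adjusted p = 5.63e-05, DESeq2 adjusted p = 0.184). In that contrast 3 of 6 members passed, the third being Gja1, which was lower in Schwann-like cells, and 36.1% of all genes passed. Gjc3 and Gjb1 passed the filter on low counts through Schwann-like cells, so their p-values here add no separate support.

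Within the Schwann-like cells Gjb1 was counted in myelinating clusters alone. Myelinating clusters, named from Mbp and other myelin genes, held 69.5, 94.0 and 182 CPM of Gjb1, in 184, 36 and 25 cells. Non-myelinating clusters held 0 UMIs in 50, 17 and 13 cells, which allows up to 42.8, 76.7 and 76.1 CPM, and the gene was not tested between the kinds because its counts were too few for the filter. Gjc3 was found in both kinds, at 395, 376 and 352 CPM in myelinating and 228, 230 and 177 CPM in non-myelinating clusters. The kinds did not overlap, and the difference was 0.95 ± 0.30 (edgeR adjusted p = 0.0101), where 39.7% of the genes tested passed. It was lost without PLV 1 (adjusted p = 0.0813) and by DESeq2 (0.197).

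**Figure D4:**
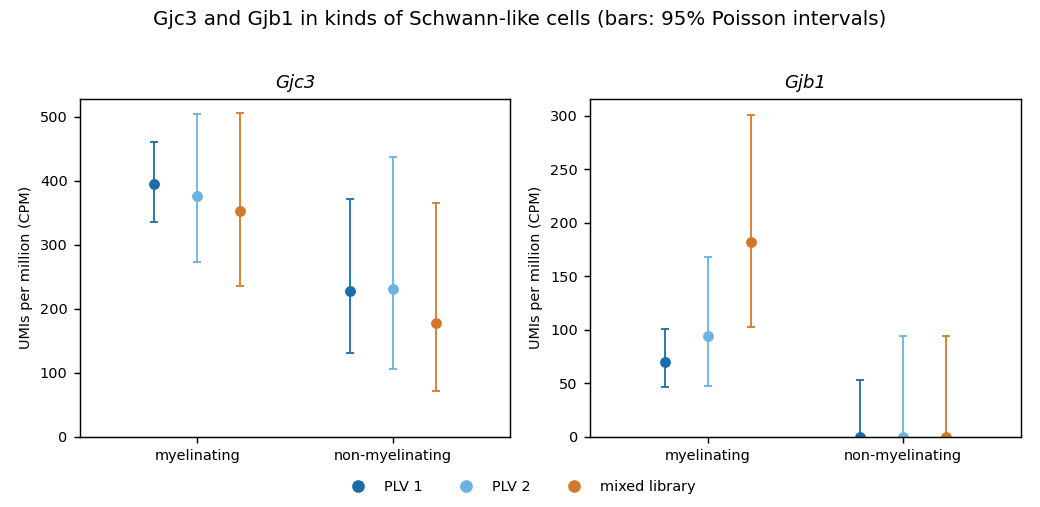
Gjc3 and Gjb1 in CPM (linear axes from 0) in myelinating and non-myelinating Schwann-like clusters, 1 point per library with its 95% Poisson interval. Gjb1 is at 0 in the non-myelinating clusters of all 3 libraries, while Gjc3 is between 177 and 230 CPM there.

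Factors of the list also passed between these kinds. Egr2, the factor that drives the myelin programme, averaged 641 CPM in myelinating and 92.0 CPM in non-myelinating clusters (2.75 ± 0.35, edgeR adjusted p = 4.99e-08). Sox10, which acts on Gjb1 together with Egr2, averaged 386 and 707 CPM (-0.79 ± 0.24, edgeR adjusted p = 0.00876), and had served to name the class. Klf2 was higher and Klf4 lower in myelinating clusters. Of the partner genes Cav1, Tjp1 and Ctnnb1 were higher and Cdh2 and Nedd4 lower there, and Cdh2 had served to name the non-myelinating kind.

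Between the mixed library and PLV, 3 members differed in at least 1 class. Gja4 of muscle-like cells was lower in the mixed library (15.4 against 88.4 and 79.2 CPM), by -2.23 ± 0.30 on the log2 scale (edgeR adjusted p = 4.47e-11), and 16.4% of all genes passed there. Pln-type cells were 43 of 285 muscle-like cells in the mixed library, 249 of 413 in PLV 1 and 53 of 109 in PLV 2. Within the Pln type the Gja4 levels were 106 against 137 and 135 CPM, a difference of -0.14 ± 0.33 (edgeR adjusted p = 0.879). There neither of the 2 members tested passed by edgeR or DESeq2, Gjc1 had an unadjusted p under 0.05, and 2.94% of all genes passed. The low muscle-like level of Gja4 went with a smaller share of Pln-type cells, whose part in it was not tested. Whether muscle-like cells differed from endothelial cells in their shift between libraries was also tested for Gja4, and it passed against blood endothelial-like cells (edgeR adjusted p = 3.91e-06, with 2.19% of all genes) and against lymphatic ones (2.65e-05, with 2.54%). With at most 10% mitochondrial UMIs allowed, the muscle-like call was lost (adjusted p = 0.0839) at a similar size (-2.33).

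Gja1 of fibroblast-like cells was lower in the mixed library (64.8 against 200 and 206 CPM), by -1.10 ± 0.33 (edgeR adjusted p = 0.0301, DESeq2 adjusted p = 0.19), where 11.6% of all genes passed. Different clusters made up the class: 139 of its 276 cells in the mixed library were the cluster led by Col4a4 and Tspan11 at 11.2 CPM. Clusters with shared leading genes differed too. With Pi16, Fn1, Fbn1 and Dpt among these genes, the level was 62.5 CPM in the mixed library and 168 CPM in PLV 1. With Cxcl14, C3 and Inmt among them, it was 149 CPM in the mixed library and 224 CPM in PLV 2. The part of the class make-up in the difference was not tested. Gja5 of blood endothelial-like cells was lower (12.6 against 121 and 29.8 CPM), by -2.56 ± 0.47 (edgeR adjusted p = 0.000824), where 2.89% passed, and this was lost with at least 1000 UMIs a cell (adjusted p = 0.192), while DESeq2 gave the gene no adjusted p. In PLV 1, 174 of the 187 Gja5 UMIs of the class lay in the arterial-like cluster, a kind named in no other library. Capillary-like clusters held 24.3 CPM of Gja5 in the mixed library, between the 16.7 and 29.8 CPM of PLV 1 and PLV 2. The part of the arterial-like cluster in the difference was not tested. In lymphatic endothelial-like cells none of 3 members passed by edgeR or DESeq2, none had an unadjusted p under 0.05, and 0.622% of all genes passed. The mixed library is 1 sample, assumed to vary as the PLV libraries do, and vessel, digestion, pool, Xist level and software version cannot be told apart in this comparison.

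Gjb2 was not detected in any of the 6 classes. Its single UMI lay in the perineurial-like cluster of PLV 1. Among the connexins outside the 7, Gjb5, a connexin of the epidermis, had 46 UMIs and was highest in 5 keratinocyte-like cells of PLV 1 (140 CPM). Panx1, whose protein forms channels in single membranes, had 107 UMIs and was 10.9, 8.59 and 3.62 CPM in lymphatic endothelial-like cells. Fibroblast-like cells had similar levels, with a mean of 10.4 CPM over the PLV libraries (23 UMIs) and 2.84 CPM in the mixed library (6 UMIs).

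Over the 18 sums of class and library, the genes most like each member in log2(CPM + 1), of 12529 compared, were ranked by Pearson's r, and those reported here are named. For Gja4 these were Tinagl1 (0.96) and Mpp2, for Gjc1 Stac (0.96), Rnf150 and Ppp1r1a, and for Gja1 Vsir (0.95), Ace and Trim30a. For Gja5 they were Ssu2 (0.94), Lcp1 and Lrrc3b, for Gjc3 Kcna1 (0.99), Gas2l3 and Pllp (a marker used to name myelinating clusters), and for Gjb1 Cmtm5 (1.00), A330069K06Rik and Nlgn1. Among the members, Gjb1 and Gjc3 (0.96) and Gja4 and Gjc1 (0.84) were most alike. The 18 points share libraries and depth, classes at 0 set much of each value, and no test was made.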

How the data were processed

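Gene expression was measured in 3 droplet libraries of mouse popliteal vessels, PLV 1, PLV 2 and the mixed library. The deposited values are whole-number UMI counts per gene and cell barcode, made with Cell Ranger 6.1.2 for the PLV libraries and 4 for the mixed one, per the file headers. The submitters' processing notes name the build GRCm38. The hashtag antibody counts, deposited as a sample of their own, gave no gene values.

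Kept barcodes had 500 UMIs or more and 300 genes or more, with up to 15% mitochondrial and up to 20% haemoglobin UMIs, and scrublet's predicted doublets (10, 3 and 3) were removed. Cells were clustered in scanpy 1.11.5 (2000 variable genes, 50 components, 15 neighbours, Leiden resolution 1 with leidenalg 0.10.2) without the connexins and the genes of the other lists. A cluster was named when 3 or more markers of a class were raised 2-fold, with 20 CPM added, and a kind when its score led by 1 on the log2 scale. Splitting of mixed clusters and leaving out erythroid cells were chosen after the clusters were seen. Class names were rebuilt here and are not the authors' names.

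Counts were summed per library and class and compared in edgeR 4.0.16, with TMM factors, filterByExpr, the quasi-likelihood test and Benjamini-Hochberg adjustment over all genes tested (threshold 0.05), and with library as a block except between library kinds. DESeq2 1.42.0 was an alternative. With the block, p-values measure how far a difference between groups varied over the libraries. Between library kinds they measure the spread of the 2 PLV pools. Poisson and Clopper-Pearson 95% intervals and floors of 3 counts cover counting error only, and shares were also computed after thinning to 1500 UMIs a cell. In simulated counts 200 genes were given a 4-fold change, of which 91% were found between muscle-like and fibroblast-like cells (10112 genes), 64% between the mixed library and PLV in muscle-like cells (10614 genes) and 87% between kinds of muscle (7004 genes). These counts had a fixed, chosen spread (negative binomial dispersion 0.05) and no other difference between groups or libraries. The rates therefore do not give the power of the tests on the real counts.

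The members and gene lists were chosen with earlier results of these data known. All 7 members are named. Other connexins and pannexins are named with 10 UMIs or more, list genes when they passed, and the 3 genes most like each member by Pearson's r over the 18 sums. The comparison of Schwann kinds, that of the Pln type between libraries, the tests of a difference between differences, the thinned valve marker and leaving out cells over 20000 UMIs were added after seeing the data. The other alternatives were DESeq2, Leiden resolutions 0.5 and 2, 1000 UMIs or more, up to 10% mitochondrial UMIs, doublets kept, 2 or more UMIs of the valve markers, no filter on low counts, no library block and leaving out each library. Some genes that these rules would name are not reported here.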

Additional observations from a re-analysis of the deposited data

Results flagged for a closer look

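For Gja4, and in 1 contrast for Gjc1, the difference between muscle-like and endothelial cells was not the same in the mixed library as in PLV. For Gja4, muscle-like against blood endothelial-like cells differed by -2.56 more on the log2 scale in the mixed library than in PLV (edgeR adjusted p = 3.91e-06), where 2.19% of all genes passed. Against lymphatic endothelial-like cells the Gja4 value was -2.29 (edgeR adjusted p = 2.65e-05), where 2.54% of all genes passed. For Gjc1, muscle-like against blood endothelial-like cells differed by -1.02 (edgeR adjusted p = 0.04999), at the threshold, and the Gjc1 value against lymphatic endothelial-like cells missed it (-0.999, adjusted p = 0.235). Gja1 against both endothelial classes and Gja5 against blood endothelial-like cells missed it as well (adjusted p = 0.754 to 0.997). The mixed library is 1 sample, and the kinds of muscle-like cells also differed in share between the libraries.

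Some members were found in cells outside the 6 classes, above their level in the immune classes of the same library. Gja1 was 466 CPM in perineurial-like cells of PLV 1 and 140 CPM in those of the mixed library, and 42.1 CPM in keratinocyte-like cells of PLV 1. The unnamed clusters of PLV 1 together held 79.3 CPM of Gja4 and 159 CPM of Gjc1. They also held the Pln-type muscle markers Pln (473 CPM) and Sorbs2 (895 CPM). These levels average unlike clusters. Gja4 was 125 and 142 CPM in those with Nrip2 among their leading genes and 6.78 CPM in one led by H2-Ab1. Gjc1 was 272 CPM in each of the former and 0 in the latter. A mast-named cluster of 29 cells in the mixed library held 106 CPM of Gjc1 (18 UMIs) together with the Ano1-type muscle markers Ano1 (293 CPM) and Hmcn2 (246 CPM), while the mast-named cluster of PLV 1 held none of the 3 genes. The part of muscle RNA or muscle cells in these values was not tested.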

How the results depend on the processing

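Values here are numbers of members called, with the number in the main analysis in parentheses. With DESeq2 they were 1 for lymphatic against blood endothelial-like cells (2), 0 for fibroblast-like (1) and 0 for blood endothelial-like cells (1, where DESeq2 gave no adjusted p for Gja5) between the mixed library and PLV, 1 for capillary-like against venular-like clusters (3) and 0 for the Schwann kinds (1). Leiden resolution 0.5 gave 1 for muscle-like against pericyte-like cells (2) and 2 for the muscle kinds (1), and resolution 2 gave 0 for the former. A minimum of 1000 UMIs gave 0 for blood endothelial-like cells between libraries. At most 10% mitochondrial UMIs gave 0 for muscle-like cells between libraries (1) and 2 for the muscle kinds. No filter on low counts gave 2 for the Schwann kinds. Leaving out 1 library gave 0 to 1 for muscle-like against pericyte-like cells, 0 to 2 for lymphatic against blood endothelial-like cells, 0 to 1 for the Schwann kinds, 1 to 2 for the muscle kinds and 5 to 7 steps in the order of levels (8). The cause was not tested. The other 138 values of this kind stayed within 1.5 times the main count, and no result changed direction with its call. Of the values for single genes, 378 kept their side of the threshold, 10 came to pass it and 19 no longer passed it. No paired analysis was possible because PLV and mixed pools came from different mice and share 1 replicate number only, while classes within a library were blocked by library. Without that block, 1 member was called between muscle-like and pericyte-like cells (2).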
